A study of Homo sapiens with 36 samples.

Results

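The insulin-like growth factor axis was read as 6 genes of a panel of 2549 genes: the ligands IGF1 and IGF2, their receptor IGF1R, and the binding proteins IGFBP2, IGFBP3 and IGFBP4. They were chosen by name, because IGFBP2 was among the most variable genes of the panel, and all 6 were present. In this axis, IGF1 and IGF2 are secreted growth factors that activate the receptor tyrosine kinase IGF1R, which signals through the adaptors IRS1 and IRS2 to the PI3K-AKT and RAS-MAPK pathways. The binding proteins hold the ligands outside the cell and limit or prolong their action, and IGFBP2 also carries an integrin-binding motif through which it can act on cells without a ligand. Lymphocytes can carry IGF1R, and the receptor is known as a survival signal in several blood cancers.

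Targeted RNA-Seq, which counts a chosen set of transcripts, was run on cell lysates of 36 lymphoma lines of human origin, immortalised cultures grown as laboratory models of the disease. Each line gave 1 library, and the labels name the line, with no treatment, genotype, subtype or other group. Levels were therefore compared across lines, and no line has an error between replicates. P-values measure the spread between these 36 libraries.

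Library totals ran from 6422917 to 13451527 counts. The B cell markers in the panel reported here (MS4A1, CD22, CD79A and PAX5) summed to between 545 and 15375 CPM, and none of the 4 was at 0 in any line. The library labelled SUDHL16 stood apart, with markers of the same cell type at opposite ends. It was the lowest of 36 for MS4A1 (24.0 CPM, median over lines 580). Yet it was the second highest for CD79A (1297 CPM) and rank 4 for CD22 (3873 CPM). Its PAX5 was near the median (187 CPM, median 200). It was the highest for NCAM1 (697 CPM), ITGB1 (8872 CPM) and KRT8 (1776 CPM). It was also the lowest for CD2 (1.31 CPM), a T and NK cell marker like NCAM1. The same held for KRT18 (127 CPM), a keratin like KRT8. The count table also holds 10 rows that name no gene, read here as background. The library MEC1 had the highest background: its highest such row drew 424 counts, against 64 in the next library and a median of 10. Many of the results that rest on either library are given with and without it.

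The promoters of IGFBP2 and IGF1R are shown because the levels of these genes moved together across lines, as described further on. Both are taken from RefSeq on GRCh38.p14 and run 5′ to 3′ over the 250 bases before a start site, with capitals marking each GC box, searched as GGGCGG or its reverse complement CCGCCC on either strand. For IGFBP2, which has 3 start sites in the table, the window shown, chr2:216633170-216633419 on the plus strand, is the one whose start site lies nearest, at 25 bases, to that of the transcript GENCODE numbers first. That transcript starts downstream of the gene's first base. For IGF1R the window is chr15:98648289-98648538 on the plus strand. Its start site lies farther, 432 bases, from that of the IGF1R transcript GENCODE numbers first.
IGFBP2: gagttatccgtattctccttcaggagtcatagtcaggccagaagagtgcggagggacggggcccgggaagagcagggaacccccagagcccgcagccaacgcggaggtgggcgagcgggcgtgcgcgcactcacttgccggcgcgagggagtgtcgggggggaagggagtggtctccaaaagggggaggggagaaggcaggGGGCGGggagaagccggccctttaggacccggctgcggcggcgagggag
IGF1R: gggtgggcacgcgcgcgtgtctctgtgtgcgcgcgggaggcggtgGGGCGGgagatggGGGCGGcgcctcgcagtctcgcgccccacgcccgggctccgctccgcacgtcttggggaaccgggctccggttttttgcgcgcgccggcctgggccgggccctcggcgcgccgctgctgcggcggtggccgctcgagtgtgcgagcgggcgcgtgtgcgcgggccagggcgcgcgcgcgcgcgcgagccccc
In windows of 300 bases, which add 50 bases after the start, IGFBP2 held 1 GC box and IGF1R held 2 that did not overlap, and neither held TATAAA on either strand. Of all 35116 promoter windows of that length, 45.0% held a GC box and 11.5% held TATAAA, so a GC box is common. The ratio of observed to expected CpG was 0.825 for IGFBP2 and 1.19 for IGF1R, against a median of 0.579 over all windows. The other IGFBP2 windows had lower ratios, 0.364 with 1 GC box at the gene's first base and 0.257 with 0 GC boxes further downstream, so these letters describe 1 of its start sites. A match is a description of these letters and shows no binding.

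IGFBP2 spanned the widest range of the 6 genes. Its levels are given in CPM, counts scaled to a common library size after scaling by the library's TMM factor, a correction for differences in RNA composition, with exact 95% Poisson intervals that cover counting error only. The gene lies at chr2:216632828-216664436 on the plus strand of hg38. DOHH2 had the highest level, 9714 CPM (9663 to 9764), followed by MINO at 7068, OCILY8 at 4640, SP49 at 3293 and SSK41 at 3066 CPM. UPN1 (2411 CPM), OCILY18 (2311), SP53 (2289), MAVER1 (1914), OCILY19 (1734) and KARPAS1718 (1291) followed. These 11 lines were above 1000 CPM, and the next line, OCILY1, had 798 CPM.

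No break in the levels of IGFBP2 was large enough to divide the lines by the rule set for this. TOLEDO had 307 CPM, GRANTA519 had 221, OCILY7 had 194, REC1 had 179 and HBL1 had 116 CPM. The median over 36 lines was 88.6 CPM. The lowest lines were JVM2 at 11.9, SUDHL6 at 9.36 and KARPAS422 at 5.21 CPM (3.94 to 6.75), 1866-fold below DOHH2. The widest step between neighbouring lines, from OCILY1 down to TOLEDO, was 1.38 log2 units, or 12.7% of the whole range. It had 24 lines below it, and the rule asked for 1.5 log2 units and 20% of the range. In DOHH2 the transcript alone took 1.19% of the library, 143125 counts (exact Clopper-Pearson interval at 95%, 1.19% to 1.20%).

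The SD of log2 CPM of IGFBP2 was 3.13, rank 10 among 2406 genes kept, where the median gene had 1.20. Genes just above it in that order were CCL4 (3.16) and CACNA2D1 (3.15), and just below it CACNA2D3 (3.12) and CCND1 (3.10). This spread is why the gene was chosen, so it has no test. Counting error made up 0.0549% of its variance. Of the 35 pairs of neighbours in the order, 15 had overlapping intervals, all but that of OCILY18 with SP53 among lines under 100 CPM.

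**Figure D1:**
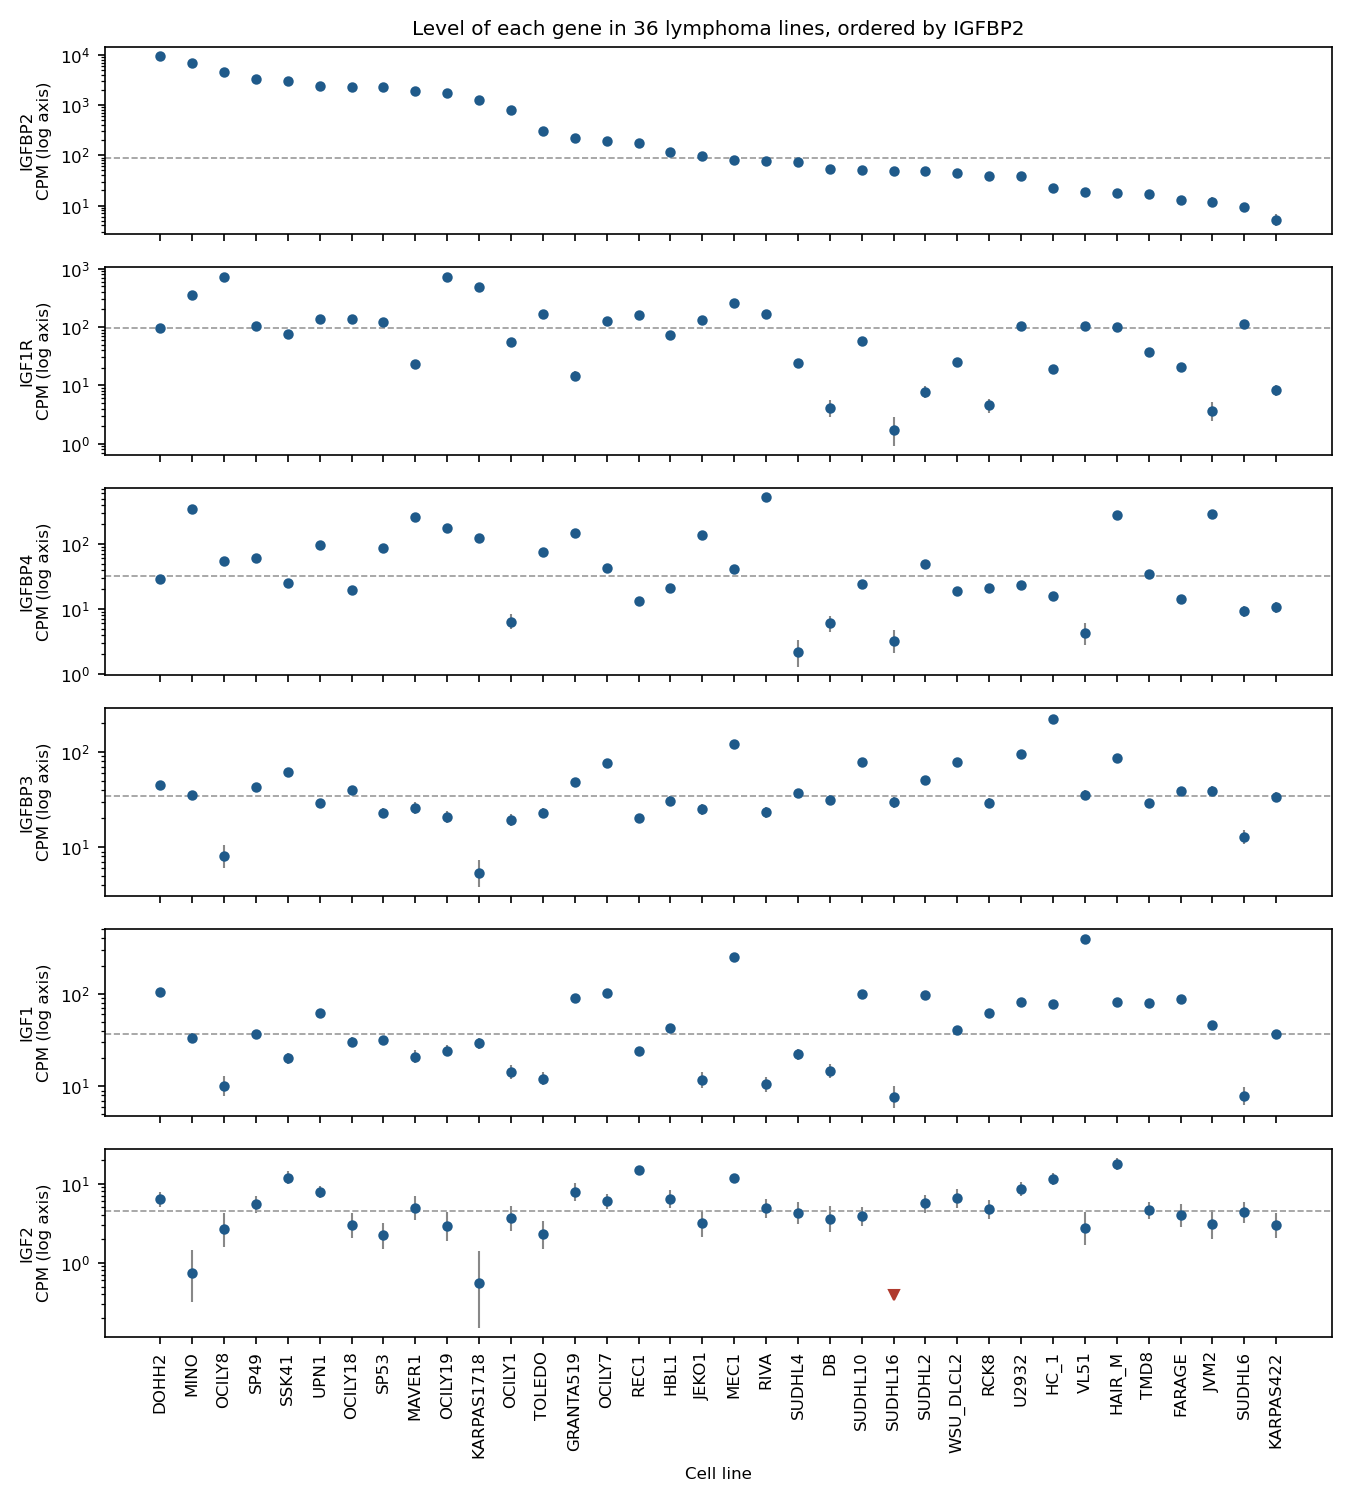
Level of each of the 6 genes (CPM on log axes, each panel with its own scale) in the 36 lines, ordered from left to right by IGFBP2; bars are exact 95% Poisson intervals, dashed lines are medians over lines, and the triangle marks the limit of a count of 0. IGFBP2 runs from 9714 CPM in DOHH2 to 5.21 CPM in KARPAS422, IGF1R tends to be higher on the left, and IGF2 reaches at most 17.8 CPM.

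IGF1R, the receptor of the axis (chr15:98648539-98964530, plus strand), was the second most variable of the 6, with an SD of 2.15 log2 units. OCILY19 and OCILY8 had the highest levels, 727 and 725 CPM, and their intervals overlapped. KARPAS1718 followed at 486, MINO at 346 and MEC1 at 259 CPM, and then TOLEDO at 169, RIVA at 165 and REC1 at 158 CPM. The median was 97.4 CPM, and 17 lines lay above 100 CPM. At the other end, KARPAS422 had 8.31, SUDHL2 had 7.76, RCK8 had 4.53, DB had 4.09, JVM2 had 3.63 and SUDHL16 had 1.70 CPM (0.906 to 2.91), a level that rests on 13 counts. In RCK8 the level did not exceed that library's highest row without a gene name. Neighbouring lines overlapped in 23 of 35 steps.

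IGFBP4, a binding protein that holds back ligand action until it is cleaved, had its highest level in RIVA, 526 CPM (chr17:40443461-40457731, plus strand). MINO (343 CPM), JVM2 (290), HAIR_M (278) and MAVER1 (260) followed, and 9 lines were above 100 CPM. The median was 32.2 CPM, and 6 lines were under 10 CPM, with SUDHL4 lowest at 2.15 CPM. The SD was 1.99 log2 units. The lines high in IGFBP4 overlapped in part with those high in IGFBP2. Of the 11 lines above 1000 CPM of IGFBP2, MINO, MAVER1, OCILY19 and KARPAS1718 had over 100 CPM of IGFBP4. UPN1 (96.3 CPM), SP53 (86.8), SP49 (61.7) and OCILY8 (54.7) were also above the IGFBP4 median. DOHH2, at 29.4, SSK41, at 25.2, and OCILY18, at 19.8 CPM, were under it.

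IGFBP3, the main carrier of the ligands in blood (chr7:45912245-45921874, minus strand), was even across most lines. HC_1 had 224 CPM and MEC1 had 121 CPM, the median was 34.4, and the lowest were OCILY8 at 8.06 and KARPAS1718 at 5.34 CPM. Its SD of 1.03 log2 units was under that of the median gene, and neighbouring lines overlapped in 29 of 35 steps.

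Of the ligands, IGF1 exceeded the library's highest row without a gene name in all 36 lines, with at least 59 counts, and IGF2 drew few counts. IGF1 (chr12:102395874-102481744, minus strand) had 392 CPM in VL51 and 247 CPM in MEC1, and DOHH2 and OCILY7 followed at 104 and 103 CPM, which did not differ beyond their intervals. Its median was 36.9 CPM, and the lowest lines were SUDHL6 at 7.88 and SUDHL16 at 7.72 CPM. IGF2 (chr11:2129112-2149603, minus strand), the imprinted fetal growth factor of the family, had at most 17.8 CPM, in HAIR_M, with REC1 at 14.7, SSK41 at 11.9, MEC1 at 11.8 and HC_1 at 11.5 CPM. These 5 lines were the ones above 10 CPM. The IGF2 median was 4.46 CPM, and neighbouring lines overlapped in 34 of 35 steps. SUDHL16 had 0 counts, which allows up to 0.393 CPM. In 31 of 36 lines IGF2 exceeded the library's highest row without a gene name. In MEC1 it did not, at 258 counts of IGF2 and 424 of that row, and the same held in RCK8, TOLEDO, KARPAS1718 and SUDHL16.

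Lines high in IGFBP2 tended to be high in IGF1R. Of the 36 lines, 12 were above the median of both genes: MINO, OCILY8, OCILY19, KARPAS1718, SP49, UPN1, OCILY18, SP53, TOLEDO, OCILY7, REC1 and JEKO1. Another 12 were below both, among them KARPAS422, JVM2, DB, RCK8 and SUDHL16. The 6 lines above the median of IGFBP2 alone were DOHH2, SSK41, MAVER1, OCILY1, GRANTA519 and HBL1, of which DOHH2, at 96.3 CPM of IGF1R, lay just under that median. The 6 above the median of IGF1R alone were MEC1, RIVA, SUDHL6, U2932, VL51 and HAIR_M.

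Over the 36 lines the log2 CPM of IGFBP2 and IGF1R gave a Pearson r of 0.545 (two-sided permutation p = 0.00065, adjusted p = 0.00607 over the 28 pairs computed). Spearman's rho was 0.536 (permutation p = 0.00097, adjusted p = 0.00679). Without DOHH2 and MINO, the lines farthest from the IGFBP2 median, r was 0.528, and with each line left out in turn it lay between 0.508 and 0.579. Without MEC1 and SUDHL16 it was 0.573. Regressing both genes on the log2 TMM factor of the library left r at 0.563. The summed B cell markers had a rho of -0.451 with IGFBP2 and -0.528 with IGF1R, and their part in the relation was not tested.

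**Figure D2:**
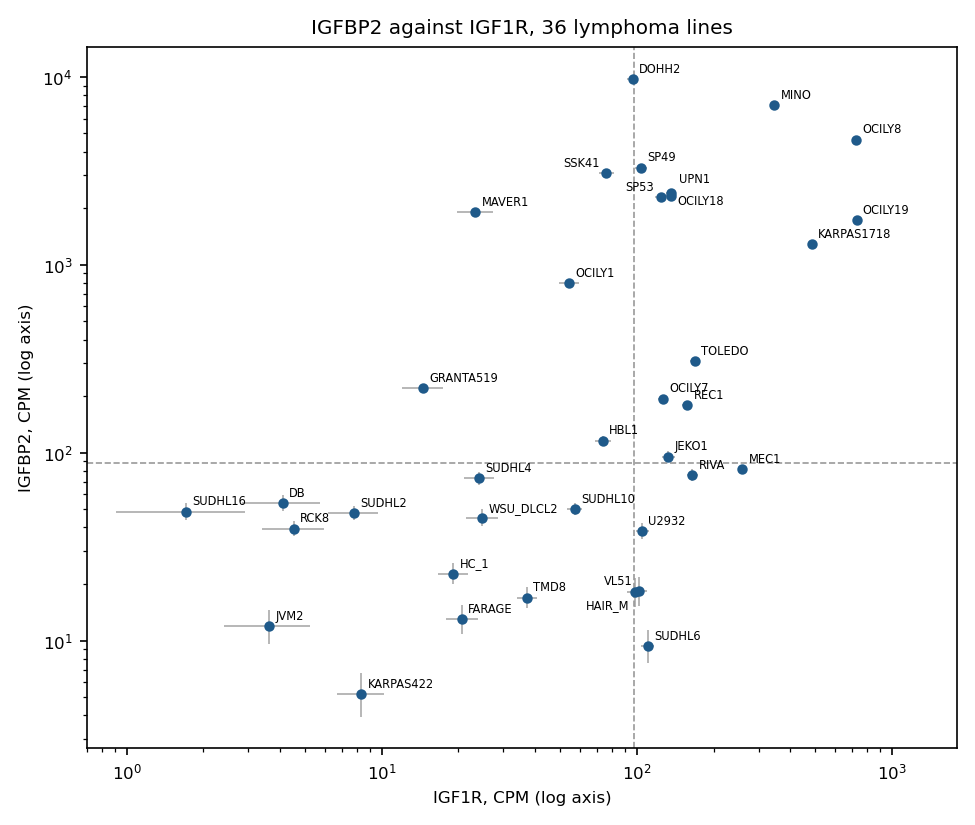
IGFBP2 (vertical) against IGF1R (horizontal) in CPM on log axes, 1 point per line with exact 95% Poisson intervals; dashed lines are the medians, 88.6 CPM for IGFBP2 and 97.4 CPM for IGF1R. The upper right and lower left fields hold 12 lines each and the other fields 6 each, with MAVER1 and GRANTA519 high in IGFBP2 alone and SUDHL6 high in IGF1R alone.

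Of the 28 pairs computed, 4 passed both tests, and the other 3 joined IGFBP3 to IGF1, IGF2 and IGFBP1. IGFBP3 with IGF1 gave r = 0.591 (permutation p = 0.00013, adjusted p = 0.00364) and rho = 0.688 (adjusted p = 0.0007), and r was 0.664 without HC_1 and KARPAS1718. IGFBP3 with IGF2 gave r = 0.507 (permutation p = 0.00225, adjusted p = 0.0157) and rho = 0.54 (adjusted p = 0.00679), but the call was lost without the same lines and without KARPAS1718 alone. The r of IGFBP3 with IGF2 was then 0.37 (adjusted permutation p = 0.123) and 0.415 (adjusted permutation p = 0.0822). IGFBP3 with IGFBP1, its neighbour on chromosome 7 at a distance of 18576 bases, gave r = 0.572 (permutation p = 0.00044, adjusted p = 0.00607) and rho = 0.641 (adjusted p = 0.0007), and r was 0.52 without those lines. Without MEC1 and SUDHL16, r was 0.562 for IGFBP3 with IGF1, 0.591 with IGF2 and 0.676 with IGFBP1, and all 3 pairs passed.

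These 3 relations moved with library composition. The log2 TMM factor, which was 0.602 as a factor in OCILY8 and 1.87 in MEC1 at its ends, gave r = 0.614 with IGFBP3 (permutation p = 5e-05, adjusted p = 0.0003 over 6 genes). It gave r = 0.546 with IGF1 (permutation p = 0.00056, adjusted p = 0.00118) and r = 0.536 with IGF2 (permutation p = 0.00059, adjusted p = 0.00118). Without MEC1 and OCILY8, the lines at the ends, these were 0.506, 0.431 and 0.513. IGFBP2 (r = -0.138, permutation p = 0.42), IGFBP4 (0.0462, p = 0.788) and IGF1R (0.0827, p = 0.63) did not pass. By rank, rho with the factor was 0.524 for IGFBP3, 0.613 for IGF1 and 0.589 for IGF2. The 602 genes of lowest mean level had a median rho of 0.617 with the factor, against -0.0173 over all 2406 genes. IGFBP4, with a mean log2 CPM of 5.22 between those of IGFBP3 (5.16) and IGF1 (5.28), had a rho of 0.00129. The part of low level in these relations was not tested. After regression on the factor r fell to 0.387 for IGFBP3 with IGF1, 0.266 with IGF2 and 0.206 with IGFBP1, and none of these 3 passed, whereas IGFBP2 with IGF1R did.

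**Figure D3:**
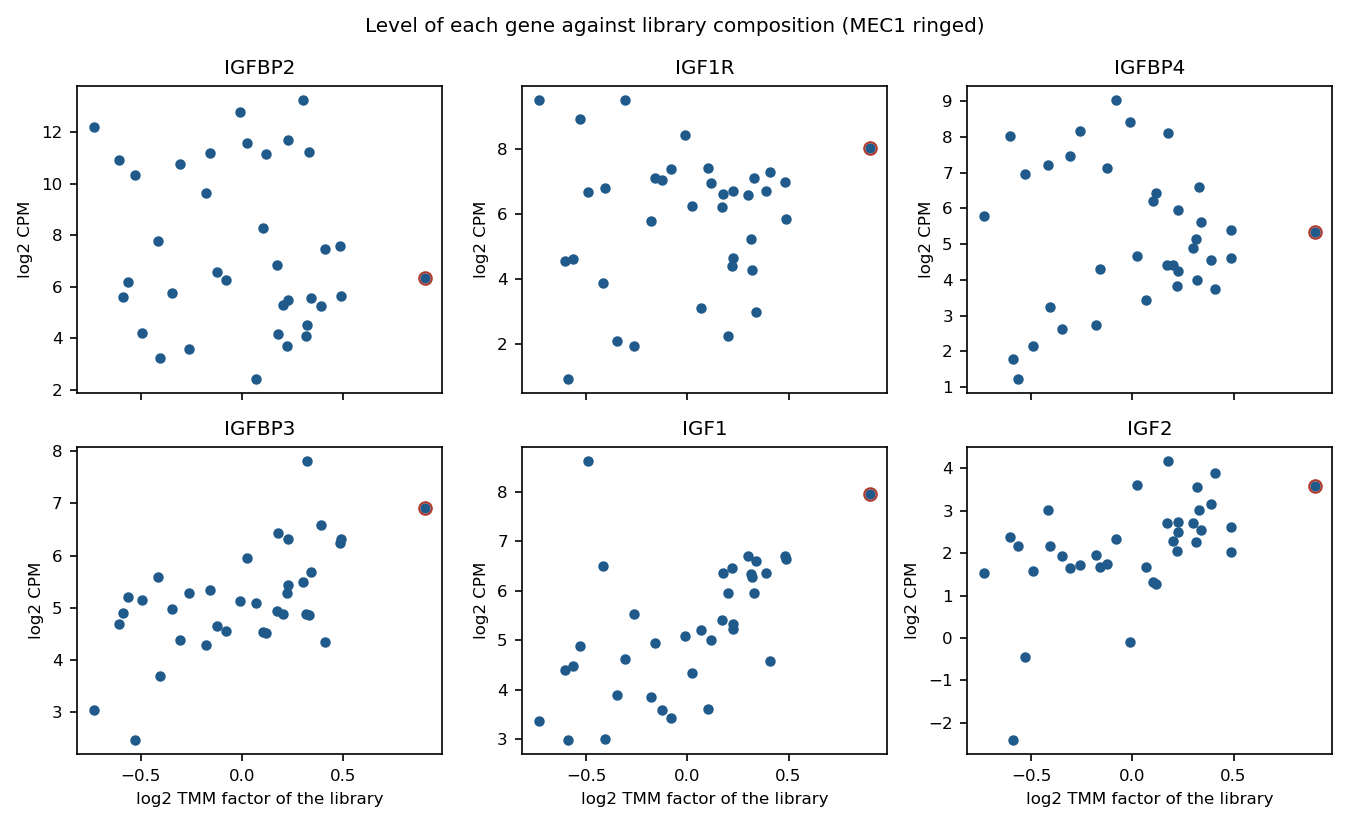
log2 CPM of each gene against the log2 TMM factor of the library, 1 point per line, with MEC1 ringed. IGFBP3, IGF1 and IGF2 (lower row) lie higher in libraries with a higher factor, with r of 0.614, 0.546 and 0.536, and IGFBP2, IGF1R and IGFBP4 (upper row) show r between -0.138 and 0.0827.

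The remaining 24 pairs did not pass both tests. IGFBP2 with IGFBP4 gave r = 0.339 and rho = 0.372 (adjusted permutation p = 0.111 and 0.0655), and IGF1R with IGFBP4 gave r = 0.371 and rho = 0.406 (adjusted permutation p = 0.0738 and 0.0538). IGF1R with IRS2, the adaptor, passed by r (0.479, adjusted permutation p = 0.0171) and missed by rho (0.43, adjusted permutation p = 0.0538). IGF1R with IRS1 gave r = 0.413 and rho = 0.374 (adjusted permutation p = 0.0514 and 0.0655). IGFBP2 gave r = -0.22 with IGF1 and -0.128 with IGF2, and IGF1R gave -0.0363 with IGF1 and 0.103 with IGF2, so neither gene had a detectable relation with the ligand transcripts in these libraries. IGFBP2 with IGFBP5, 7668 bases away on chromosome 2, gave r = -0.165. IGFBP3 with CDKN1A, a cell cycle inhibitor, gave r = 0.223. PAPPA, which cleaves IGFBP4, and the IGF2 mRNA-binding genes were not analysed here.

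Every other gene kept was then fitted on IGFBP2. The slope is the change in log2 level of a gene per log2 unit of IGFBP2 over 36 lines, from edgeR's quasi-likelihood test with Benjamini-Hochberg adjustment over 2405 genes, and a gene is said to have risen or fallen at an adjusted p under 0.05. Of all genes, 20 rose (0.832%) and 34 fell (1.41%), together 2.25%. Of the 5 other members, IGF1R rose, with a slope of 0.33 ± 0.09 (SE, adjusted p = 0.0341). It also passed by DESeq2 and missed by limma-voom (adjusted p = 0.0741), by limma on the authors' log2 values (0.0521) and with the TMM factor in the fit (0.0535). By edgeR, IGF1R also missed with upper-quartile factors (adjusted p = 0.0696) and with library size alone (0.1). It missed as well without any of HC_1, JVM2, KARPAS1718, KARPAS422, MINO, OCILY19 or OCILY8, with an adjusted p of at most 0.1. The slopes of IGFBP4 (0.09), IGF1 (-0.15), IGFBP3 (-0.12) and IGF2 (-0.05) did not pass.

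The largest positive slopes on IGFBP2 rested on few lines. DNTT, the terminal transferase of precursor lymphocytes, had 6971 CPM in OCILY19 and 931 CPM in TOLEDO, with a median of 1.78 CPM, and a slope of 1.30 ± 0.26 (edgeR adjusted p = 0.0132). SOX7, a transcription factor, had 3222 CPM in OCILY19 and at most 132 CPM elsewhere, and its slope of 0.64 ± 0.14 (edgeR adjusted p = 0.0207) was -0.01 without OCILY19. DNTT missed the threshold without that line as well, with an adjusted p of 0.257. RAG1, the recombinase that joins antigen receptor segments, had 5256 CPM in OCILY8 and 4858 CPM in OCILY19, next to 1120 CPM in OCILY18 and a median of 78.2 CPM. Its slope was 0.50 ± 0.10 (edgeR adjusted p = 0.0132, and 0.0714 without OCILY8), while its rank over the lines hardly followed IGFBP2 (rho 0.0134).

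FLT1, a VEGF receptor, and DAB2IP, a RAS GTPase-activating protein, followed IGFBP2 over more of the lines. FLT1 had 230 CPM in UPN1, 188 in KARPAS1718 and 134 in MAVER1, with a median of 8.83 and a lowest level of 0.0913 CPM in KARPAS422, and its slope was 0.51 ± 0.12 (edgeR adjusted p = 0.0298, rho 0.626). DAB2IP had 329 CPM in OCILY8, 261 in DOHH2 and 229 in RIVA, with a median of 31.3 CPM, and its slope was 0.43 ± 0.11 (edgeR adjusted p = 0.0298, rho 0.693). Both lost the call without OCILY8, at adjusted p of 0.0604 and 0.0714, and DAB2IP also without JVM2. Both were among the 5 genes that rose by edgeR, DESeq2, limma-voom and limma alike, with RASGRP2, RASAL1 and KDM7A. RASGRP2, an exchange factor for RAP1, had a slope of 0.33 ± 0.09 and a rho of 0.652, and missed in 16 of the 36 fits with a line left out. By rank the 5 genes most like IGFBP2 were DAB2IP, the transcription kinase CDK9 (0.664), RASGRP2, the checkpoint kinase CHEK1 (0.63) and FLT1, a description over 36 lines. The other large positive slopes, from 0.39 to 0.37, were those of LAMA5, a laminin chain, RUNX1T1, a corepressor, SMAD1, a transducer of BMP signals, and IL7R, the receptor of interleukin 7. LAMA5 missed in 29 of the 36 fits with a line left out, SMAD1 without OCILY8, IL7R without JVM2 or OCILY8, and RUNX1T1 without JVM2, KARPAS1718 or OCILY8. None of the 20 kept its call in every fit with a line left out.

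Of the 34 genes that fell with IGFBP2, the 10 largest slopes were those of CACNA2D1, MAGEA1, PLA1A, C5AR1, CREB3L1, TNFRSF8, PDCD1LG2, IL1R2, KCNK5 and SGK1. CACNA2D1, a calcium channel subunit, had 541 CPM in VL51, 369 in HAIR_M and 272 in HC_1, all lines at or under 22.7 CPM of IGFBP2, and a slope of -0.82 ± 0.19 (edgeR adjusted p = 0.0227). TNFRSF8, the activation receptor CD30, had 2415 CPM in VL51, 1003 in JVM2 and 877 in HAIR_M, and a slope of -0.53 ± 0.11 (edgeR adjusted p = 0.0132). SGK1, a kinase related to AKT, had 2709 CPM in SUDHL2, 2557 in FARAGE and 1970 in TMD8, and 16.3 CPM in KARPAS1718. Its slope was -0.46 ± 0.10 (edgeR adjusted p = 0.0132, rho -0.603). The rho with IGFBP2 was weaker for CACNA2D1 (-0.352), TNFRSF8 (-0.296), MAGEA1 (-0.392) and KCNK5 (-0.454). CACNA2D1 was under 10 CPM in 31 of the 36 lines, MAGEA1 in 28 and KCNK5 in 22. CACNA2D1, TNFRSF8 and SGK1 kept the call with any line left out, as did MAGEA1, a cancer-testis antigen, and KCNK5, a potassium channel. PLA1A, a phospholipase, and PDCD1LG2, the PD-1 ligand PD-L2, lost it without JVM2 or OCILY8, and C5AR1, the C5a receptor, without OCILY8 or TMD8. CREB3L1, a transcription factor of the endoplasmic reticulum, lost it without KARPAS1718, OCILY19, OCILY8 or TMD8, and IL1R2, a decoy receptor, in 25 of the 36 fits. No gene fell by limma-voom or limma, where 135 and 152 genes passed at an unadjusted p under 0.05, whereas 87 fell by DESeq2, among them all 34.

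The partners of IGFBP2 at the cell surface were measured as ITGA5, ITGB1, ITGAV and ITGB3, integrin subunits. By edgeR 1 of these 4 fell, against 1.41% of all genes. ITGA5 had 70.0 CPM in HAIR_M, 65.9 in HC_1 and 32.0 in JVM2, was under 10 CPM in 32 lines, and had a slope of -0.40 ± 0.10 (edgeR adjusted p = 0.031). It lost the call without HAIR_M, HC_1, JVM2 or OCILY8. ITGA5 also fell by DESeq2, but missed by limma-voom and limma (adjusted p = 0.375 and 0.21). As a pair with IGFBP2 it passed neither test (r = -0.405 and rho = -0.383, adjusted permutation p = 0.0514 and 0.0655). The slope of ITGB3 was -0.22 (edgeR adjusted p = 0.146), that of ITGB1 -0.03 and that of ITGAV -0.00497. DESeq2 called ITGB3 as well (adjusted p = 0.0472), and limma-voom and limma called 0 of the 4. Over the 4, the median slope was -0.13, against -0.02 over all genes.

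No other list of the pathway held a gene called with IGFBP2 by edgeR. None of 4 other binding proteins was called, with 1 at an unadjusted p under 0.05 (IGFBP6, slope -0.14) and 0 by DESeq2, limma-voom or limma. None of 3 further ligands and receptors was called (INS, INSR and IGF2R), with INS at an unadjusted p under 0.05 (slope -0.14) and 0 by the other tools. STC1 and STC2, stanniocalcins that inhibit proteases of the binding proteins, gave 0 of 2, with STC1 at an unadjusted p under 0.05, and 0 by the other tools. Of 8 receptor adaptors and of 19 genes of the PI3K-AKT-mTOR list 0 were called by edgeR or DESeq2, with 0 and 3 at an unadjusted p under 0.05. Of 14 RAS-MAPK genes 0 were called by edgeR, with 2 at an unadjusted p under 0.05, and DESeq2 called DUSP4, which fell by that test. Limma-voom and limma called 0 genes in these lists.

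Fitted on IGF1R in the same way, 53 of 2405 genes rose (2.2%) and 42 fell (1.75%), together 3.95%. Of the 5 other members, IGFBP2 rose, with a slope of 0.91 ± 0.24 (edgeR adjusted p = 0.0238). It missed without SUDHL16 (adjusted p = 0.0542) and without SUDHL16 and JVM2, the lines farthest from the IGF1R median (0.104). It passed without both MEC1 and SUDHL16 (0.0394), by DESeq2 and by limma (0.0322), and missed by limma-voom (0.06). The slopes of IGFBP3, IGFBP4, IGF1 and IGF2 on IGF1R did not pass.

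Among signalling genes downstream of the receptor, 3 were called with it by edgeR. Of 8 receptor adaptors 2 rose by edgeR, IRS2 and GAB1, and 0 fell. DESeq2 called both and IRS1, and limma-voom and limma called 0 of the 8. IRS2, the docking protein that carries the receptor signal to PI3K, had 412 CPM in RIVA, 237 in OCILY19 and 174 in HBL1, a median of 33.1 and 1.44 CPM in SUDHL16, and a slope of 0.46 ± 0.13 (edgeR adjusted p = 0.0395). GAB1, a docking protein of receptor kinases, had 930 CPM in JEKO1, 530 in OCILY19 and 353 in KARPAS1718, a median of 96.5 and 9.06 CPM in SUDHL6, and a slope of 0.34 ± 0.09 (edgeR adjusted p = 0.0238). IRS1 had a slope of 0.34 ± 0.13 and did not pass (edgeR adjusted p = 0.133). The median slope of the list was 0.04, against 0.01 over all genes.

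Of 19 PI3K-AKT-mTOR genes 1 fell, PIK3CG, and 0 rose, with 1 positive slope at an unadjusted p under 0.05. DESeq2 also called PIK3CG alone, and limma-voom and limma called 0. PIK3CG, the catalytic subunit of PI3K-gamma, had 2750 CPM in SUDHL4, 1648 in DB and 1382 in SUDHL16, a median of 135 CPM and its lowest level in JVM2, and a slope of -0.40 ± 0.10 (edgeR adjusted p = 0.0182). The subunits PIK3CA, PIK3CB and PIK3CD, the kinases AKT1 and AKT2, and MTOR did not pass. The median slope over the list was 0.00623.

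These 3 calls were lost without MEC1 and SUDHL16, where the adjusted p was 0.0854 for IRS2, 0.0698 for GAB1 and 0.0733 for PIK3CG. Without SUDHL16 alone it was 0.0997, 0.0642 and 0.0596, in the same order. GAB1 was lost without OCILY19 as well, and IRS2 without DB, KARPAS422, OCILY19, OCILY8, RIVA or SUDHL2. SUDHL16 is the line with the lowest IGF1R, 1.70 CPM, and also has 1.44 CPM of IRS2. No gene of the 14 RAS-MAPK genes was called, with 2 at an unadjusted p under 0.05. DESeq2 called MAP2K1, which fell by that test, and limma-voom and limma called 0. None of 4 other binding proteins was called on IGF1R by any of the 4 tools, with 0 at an unadjusted p under 0.05. Among INSR, IGF2R and INS, edgeR called 0, with INS at an unadjusted p under 0.05 (slope -0.21), and DESeq2 called INS, which fell by that test.

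**Figure D4:**
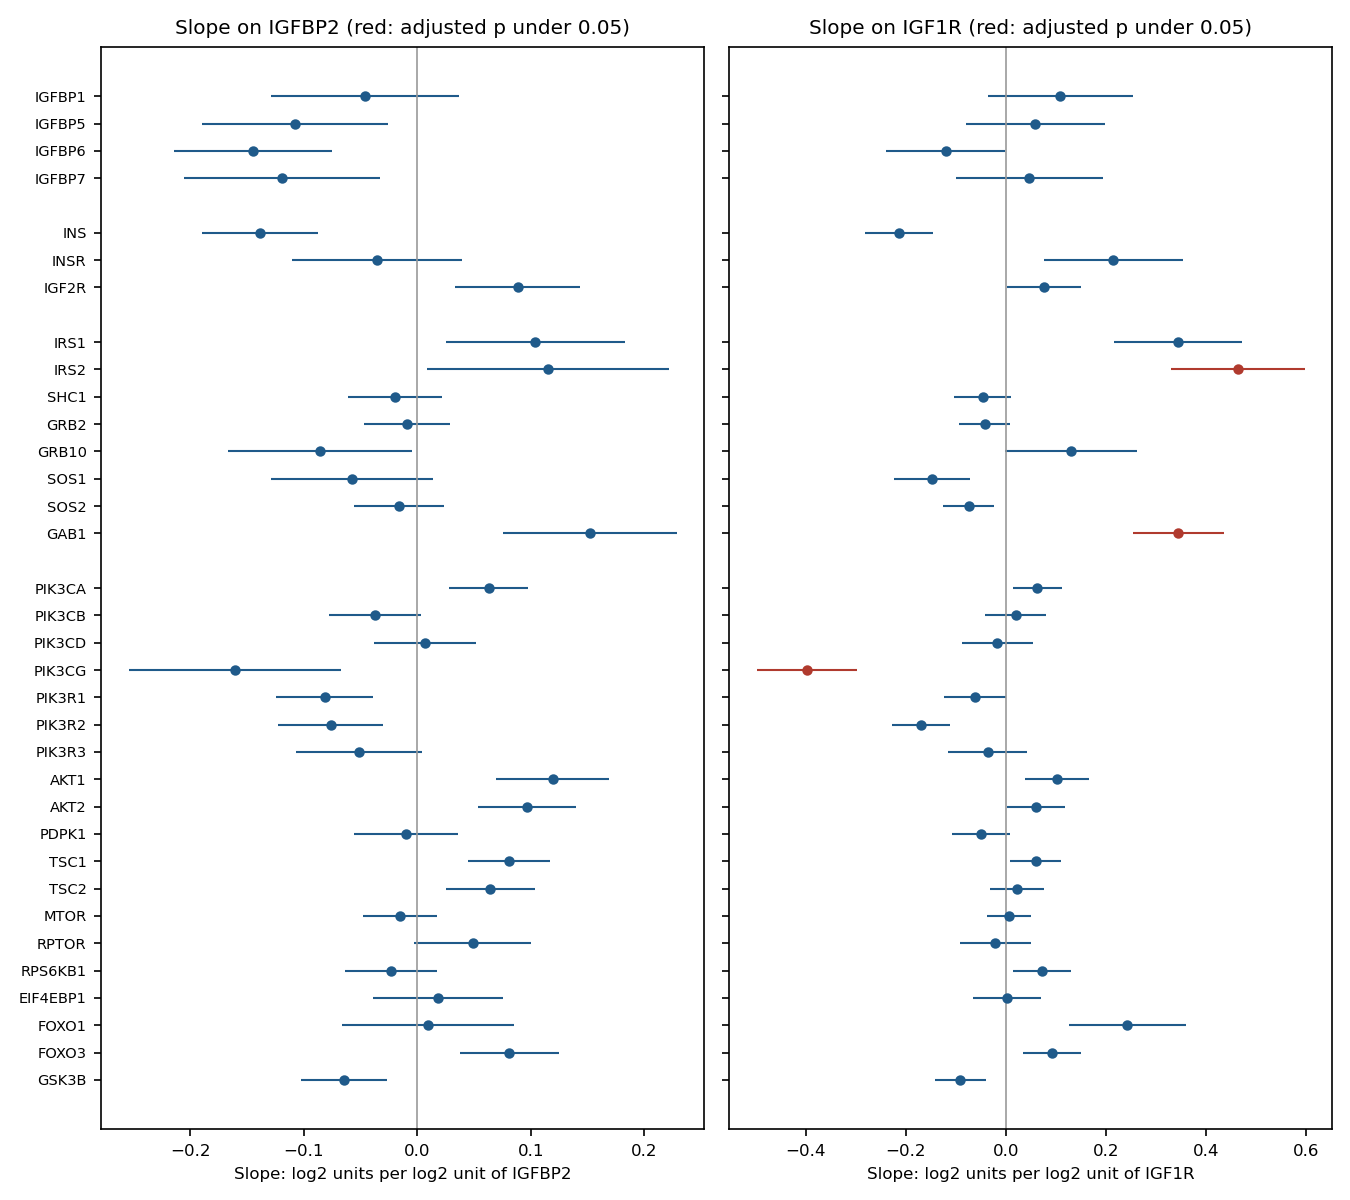
Slope of each pathway gene on IGFBP2 (left) and on IGF1R (right), in log2 units per log2 unit of the named gene, with bars of 1 SE; the blocks from top to bottom are other binding proteins, other ligands and receptors, receptor adaptors, and PI3K-AKT-mTOR genes, and red marks an adjusted p under 0.05. IRS2 and GAB1 (positive) and PIK3CG (negative) are red on the right, and no gene is red on the left.

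The largest positive slopes on IGF1R, beside IGFBP2, were those of DNTT, PDPN, BAIAP3, SOX7, ENG, TMEFF1, FLT1, RAG1 and TIMP2. BAIAP3 had 1217 CPM in RIVA, 557 in MINO and 555 in KARPAS1718, a median of 18.7 CPM, and a slope of 0.82 ± 0.19 (edgeR adjusted p = 0.00812), and it kept the call with any line left out, but missed by limma-voom and limma (adjusted p = 0.233 and 0.175). TMEFF1, a transmembrane protein, had 233 CPM in RIVA and a rho of 0.671 with IGF1R, and FLT1 a rho of 0.673. Their slopes were 0.69 ± 0.18 and 0.68 ± 0.18 (edgeR adjusted p = 0.0214 and 0.0238). ENG, a co-receptor of the TGF-beta family, had 2869 CPM in OCILY19, 562 in OCILY18 and at most 145 CPM elsewhere, and lost the call without OCILY19 (adjusted p = 0.595), as did SOX7 (0.498). PDPN, TMEFF1 and FLT1 lost it without SUDHL16, at adjusted p of 0.0598, 0.0501 and 0.0572, and TIMP2 without DB, JVM2, KARPAS1718, KARPAS422, MINO, RIVA or SUDHL16. By tool, FLT1 was among the 6 genes that rose by edgeR, DESeq2, limma-voom (adjusted p = 0.00591) and limma (0.00894) alike. TMEFF1 passed by limma (adjusted p = 0.0322) and missed by limma-voom (0.06). DNTT and RAG1 kept the call with any line left out and missed by limma-voom (adjusted p = 0.331 and 0.217) and limma (0.309 and 0.226), and their ranks followed IGF1R weakly (rho 0.279 and 0.289).

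Of the 10 largest negative slopes on IGF1R, 6 lost the call without SUDHL16. ANXA1, a membrane-binding annexin, had 6068 CPM there and a median of 3.07, and ALDH1A1, a retinaldehyde dehydrogenase, had 5773 CPM there and a median of 49.2. MT2A, a metallothionein, had 20867 CPM, ISG15, an interferon-induced protein, 8672 CPM, and IFI27, another, 851 CPM in SUDHL16, each the highest of 36. The slope of ALDH1A1 was -0.58 ± 0.09 (edgeR adjusted p = 0.000276) and -0.01 without SUDHL16. ANXA1, PTGS1, a cyclooxygenase, IFI27, MT2A and ISG15 also missed the threshold without it, at adjusted p of 0.0517, 0.0945, 0.189, 0.489 and 0.103. MAPK10, a JNK kinase, kept its call with any line left out, with a slope of -0.63 ± 0.14 (edgeR adjusted p = 0.00424), but missed by limma-voom and limma (adjusted p = 0.127 and 0.086), as did the other 9. CREB3L1 and C5AR1 lost it without SUDHL2, at adjusted p of 0.328 and 0.0812, and EPS8 without JVM2, at 0.683.

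Genes called on both IGFBP2 and IGF1R numbered 11 among those that rose, 55% of the 20 on IGFBP2 and 20.8% of the 53 on IGF1R. They were CDK9, DNTT, FLT1, IL7R, JUN, RAG1, RASAL1, RASGRP2, RUNX1T1, SMAD1 and SOX7. Among those that fell there were 7, 20.6% of the 34 and 16.7% of the 42: C5AR1, CREB3L1, EPS8, LTA, MAPK10, RASGRP1 and TNF. Both fits use the same 36 libraries, and IGFBP2 and IGF1R are themselves related, so the overlap has no test.

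**Figure D5:**
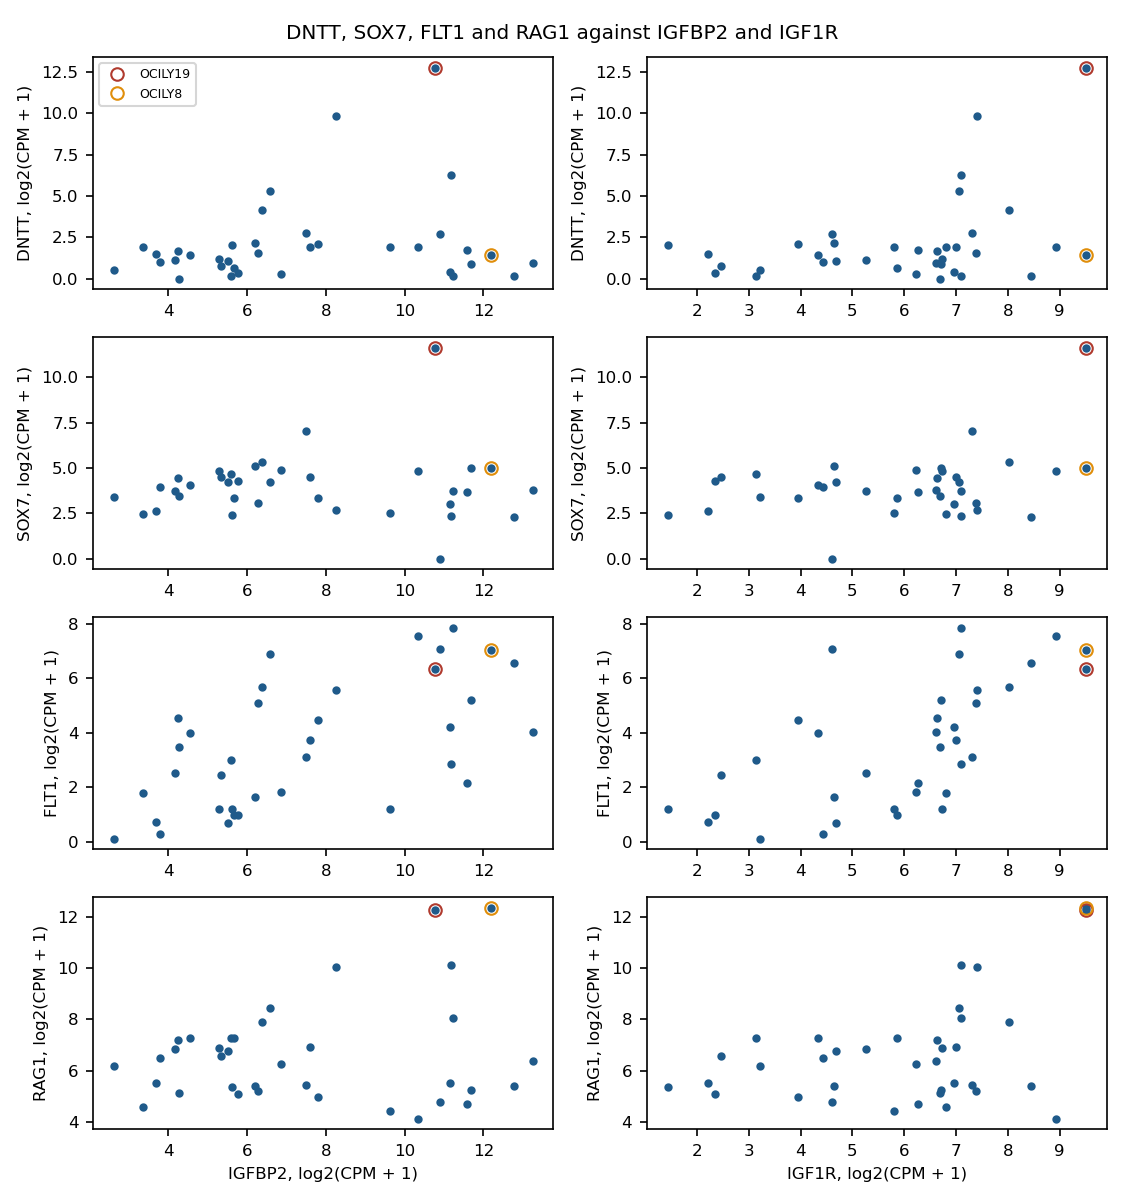
The 4 genes among the 10 largest positive slopes of both fits, DNTT, SOX7, FLT1 and RAG1, against IGFBP2 (left) and IGF1R (right), all as log2 of CPM plus 1, with 1 point per line. DNTT and SOX7 stand high in OCILY19 (red ring) and RAG1 in OCILY19 and OCILY8 (orange ring), while FLT1 rises over many lines, with a rho of 0.626 on IGFBP2 and 0.673 on IGF1R.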

How the data were processed

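Lysates of 36 lymphoma lines, 1 library each, were measured by targeted RNA-Seq, run as singletons per the labels. The deposited count table gives whole-number counts of 2559 rows per library. The deposited log2 table, made by the authors, equals the log2 of count over a factor per library, plus 1, within 0.00529, and served as an alternative. The submitters' processing notes name hg38 as the build. Aligner, counter and strandedness were not given in the sources used here, so genes that overlap or resemble others are less certain. Per the file headers, 10 rows named ER and a number match no gene. Taken here as background, they held a median of 0.000209% of counts and were left out.

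Counts were scaled by TMM in edgeR 4.0.16 (R 4.3.3). Log2 CPM used a prior count of 2. Genes reaching 10 CPM in 4 or more lines, 2406, were kept. Totals of 6422917 to 13451527 counts make counting error small beside differences between lines. Its share of the variance was largest for IGF2, 5.63%, and at most 0.785% for the other members. Slopes used glmQLFit and glmQLFTest, with SE the slope over the square root of F, and Pearson and Spearman tests used 100000 permutations. Pairs were adjusted by Benjamini-Hochberg over 28, and each r was repeated without the 2 lines farthest from the median. A gap of 1.5 log2 units and 20% of the range with 4 lines on each side would have divided the lines, and none was found. The named genes were the 6 members, the 10 largest slopes each way that kept their sign without the 2 most extreme lines, the 5 highest rho with IGFBP2, and pathway lists. Members and lists were chosen with earlier results of these data known. Coordinates are from GENCODE 29 (2508 names matched). Alternatives were other scalings, prior counts, filters, backgrounds, DESeq2 1.42.0, limma 3.58.1 (voom and on the authors' log2 values), the TMM factor as a covariate, ranks, and lines left out. Leaving out MEC1 and SUDHL16 together was chosen after seeing the data. The slope and pair tests were tested on simulated data. Results for some genes are not reported here.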

Additional observations from a re-analysis of the deposited data

Results flagged for a closer look

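The rows without a gene name were outside the comparisons, and in 32 of 36 libraries at least 1 of them exceeded 3 counts, the limit that a count of 0 allows. In MEC1 the highest of them reached 424 counts. IGF2 had 258 counts in that library, below this row, and IGF1 (5410), IGFBP3 (2644) and IGF1R (5678 counts) were above it.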

How the results depend on the processing

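No paired analysis was possible because each line gave 1 library and the labels hold no replicate numbers. The counts of genes called depended on the tool and the lines, and the cause was not tested. On IGFBP2, where 20 rose and 34 fell, upper-quartile factors gave 10 and 19, library size alone 2 and 10, limma on the authors' log2 values 7 and 0, DESeq2 73 and 87, and limma-voom 6 and 0. With the TMM factor in the fit 9 rose, and without DOHH2 and MINO 36 rose. With 1 line left out, 2 (without OCILY8) to 33 (without DOHH2) rose and 5 (without OCILY8) to 50 (without DOHH2) fell. On IGF1R, where 53 rose and 42 fell, upper-quartile factors gave 32 that rose, library size alone 25 that fell, limma 21 and 4, DESeq2 89 and 73, limma-voom 7 and 6, the TMM factor in the fit 84 and 81, the fit without MEC1 and SUDHL16 33 and 22, and without SUDHL16 and JVM2 22 and 12. With 1 line left out, 30 (without SUDHL16) to 63 (without RCK8) rose and 14 (without SUDHL16) to 69 (without RCK8) fell. DESeq2 size factors, other prior counts, other filters and ranks kept all 4 counts within 1.5 times. Of the calls, 17 and 31 on IGFBP2 and 30 and 15 on IGF1R were kept without MEC1 and SUDHL16.

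Pairs passing numbered 1 after regression on the TMM factor, and 4 to 8 with 1 line left out, 8 without MAVER1. Lines with IGF2 above background numbered 5 at 10 CPM, against 31.

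Reversals were of values near 0, or of SOX7, which OCILY19 sets. The slope of SOX7 on IGFBP2 was -0.01274 by limma-voom and -0.008427 to 0.6683 with 1 line left out. The slope of IGFBP3 on IGF1R was 0.07304 with library size alone. The slope of IGF1 on IGF1R was -0.0444 by limma, -0.009074 by limma-voom, -0.02295 without MEC1, -0.08854 without MEC1 and SUDHL16, -0.003261 without SUDHL16 and JVM2, and -0.02295 to 0.1054 with 1 line left out. The slope of IGF2 on IGF1R was -0.002735 with the TMM factor in the fit, -0.04884 without MEC1 and SUDHL16, -0.04237 without SUDHL16 and JVM2, and -0.01181 to 0.09331 with 1 line left out.

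With upper-quartile factors and with library size alone, the r of IGFBP3 with IGFBP4 was 0.03893 and 0.08269, the r of IGFBP4 with IGF1 was 0.09273 and 0.1278, and the r of IGF1 with IGF1R was 0.0608 and 0.1093. Without the 2 farthest lines these were 0.01467 for IGFBP3 with IGFBP4 and 0.02847 for IGFBP4 with IGF1, and the r of IGF2 with IGF1R was -0.09498. Without MEC1 and SUDHL16 the r of IGFBP4 with IGF2 was -0.1572 and that of IGF2 with IGF1R was -0.256. With 1 line left out the ranges were -0.1119 to 0.1084 for IGFBP4 with IGF1, -0.1521 to 0.1745 for IGFBP4 with IGF2, -0.1704 to 0.03658 for IGF1 with IGF1R and -0.2032 to 0.2097 for IGF2 with IGF1R.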

Other observations

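Of the 4 other binding proteins of the panel, IGFBP1, IGFBP5 and IGFBP7 were highest in the same 3 libraries, as was STC1, an inhibitor of binding-protein proteases. IGFBP1 had 98.8 CPM in MEC1, 98.0 in OCILY7 and 64.0 in SUDHL10, with a median of 16.9 over lines. IGFBP5 had 92.6 CPM in OCILY7, 82.4 in MEC1 and 64.1 in SUDHL10, with a median of 13.4. IGFBP7 had 177 CPM in MEC1, 126 in SUDHL10 and 77.8 in OCILY7, with a median of 17.8, and STC1 had 170 CPM in MEC1, 125 in SUDHL10 and 122 in OCILY7, with a median of 25.8. These 3 libraries also have the 3 highest TMM factors, 1.87 in MEC1, 1.40 in SUDHL10 and 1.40 in OCILY7, and the part of the factor in these levels was not tested. IGFBP6 differed, with 115 CPM in SUDHL10, 104 in WSU_DLCL2 and 55.5 in HC_1.

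The library SUDHL16, which had 0 counts of IGF2 and the lowest IGF1 and IGF1R, was also the lowest of 36 for IRS1 (2.49 CPM, median 30.4), IRS2 (1.44, median 33.1) and IGFBP7 (0.785, median 17.8). In OCILY8 IGF1R was near its highest level (725 CPM), while INSR was at its lowest, 3.16 CPM against a median of 46.0 and 397 in VL51. SUDHL16 and OCILY8 are also among the libraries with the lowest TMM factors, 0.664 and 0.602. The part of the factor in these low levels was not tested.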
